A study of Mus musculus with 24 samples.

Results

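The aortic response of Klotho knockout (KO) mice to dietary magnesium was measured by RNA sequencing in 12 of the 24 mice of the study. All 12 carried the label Klotho-/- and were of strain C57/BL6. By diet, 6 KO mice were fed 0.48% magnesium by weight (high magnesium) and 6 were fed 0.05% (minimal magnesium). The other 12 mice were wild type (WT), split evenly between the same diets, and the study took WT mice on minimal magnesium as its control group. Every mouse was kept on its diet from birth and its thoracic aorta was taken at 8 weeks of age. How the Klotho allele was made, and the sex of the mice, are not given in the sources used here. Mice were chosen by genotype and diet labels alone, so no measured value entered the choice. By mouse number, the high magnesium group held mice 11, 12, 13, 16, 31 and 32, and the minimal magnesium group held mice 18, 20, 35, 36, 37 and 40.

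Klotho is a membrane protein that acts as coreceptor for the hormone FGF23, which makes the kidney excrete phosphate and lowers active vitamin D. Mice without Klotho retain phosphate and their arteries calcify, as smooth muscle cells of the vessel wall take on traits of bone-forming cells. Magnesium is known to hinder the growth of calcium phosphate crystals and has been studied as a counterweight to phosphate in vascular calcification. The comparison of diets within KO mice asks how aortic RNA differs between high and minimal magnesium when Klotho is missing.

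The deposited tables name genes and transcripts by identifiers from the Mouse Genomes Project annotation of C57BL/6NJ and do not pair them with gene symbols. Of 41012 gene identifiers, 0 occurred in the name tables used here. The Klotho transcript, the markers of smooth muscle, endothelium, fat and other cell types, and the calcification, matrix and magnesium transport lists could therefore not be read, and the function of a changed gene is not given. Genes are described below by level, size of change, number of transcripts and values in each mouse. A gene with a near-identical copy has an uncertain count, because reads were divided between transcripts by a model.

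Libraries held 9947302 to 15700533 estimated counts on high magnesium and 11488403 to 17833156 on minimal magnesium, and these ranges overlapped. Mouse numbers fall into a series from 1 to 18 and a series from 20 to 40, which the diets did not share evenly: 4 of the 6 KO mice on high magnesium came from mice 1 to 18, against 1 of 6 on minimal magnesium. Nothing in the labels says whether the series were handled apart. A pair of libraries went against their genotype labels. At 492 genes whose log2 CPM (a gene's counts relative to the library total) did not overlap between the other 11 KO and the other 11 WT mice, mouse 20, labelled KO on minimal magnesium, lay on the KO side at 0.407%. Mouse 4, labelled WT on minimal magnesium, lay on the KO side at 93.9% of them. With genes chosen in the same way and the placed mouse left out, the remaining 11 KO mice took the KO side at 75.0% to 97.4% of genes and the remaining 11 WT mice at 1.20% to 23.5%. Results that rest on these mice are given with all mice as labelled and, for the counts and named items, also without mice 4 and 20.

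High magnesium went with a large shift of the KO aortic transcriptome in both directions. Of 16741 genes tested, 4174 (24.9%) were called at an edgeR adjusted p below 0.05, of which 1960 (11.7%) were higher and 2214 (13.2%) lower on high magnesium. In bulk aorta fewer cells of a type and less RNA per cell cannot be told apart. Falls were larger than rises: the median log2 fold change was 0.69 among genes called higher and -1.0 among genes called lower, while the median over all genes tested was 0.01. Past 2-fold, 536 genes rose and 1113 fell, and past 4-fold 80 rose and 346 fell. Past 16-fold, 6 rose and 25 fell. Without mice 4 and 20, 4249 genes were called, 1789 higher and 2460 lower, and 3654 of them were also called with all mice. The same excess of large falls was present there, with 74 genes past 4-fold higher and 420 past 4-fold lower. The balance of all calls turned without mice 31 and 32, when all KO mice on high magnesium were from mice 1 to 18. Then 5618 genes were called, 2899 higher and 2719 lower, while large falls still outnumbered large rises (761 against 121 past 4-fold). It also turned in mice 20 to 40 alone without mouse 20, with 1463 higher and 1391 lower. There mice 31 and 32 were the only KO mice on high magnesium.

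**Figure D1:**
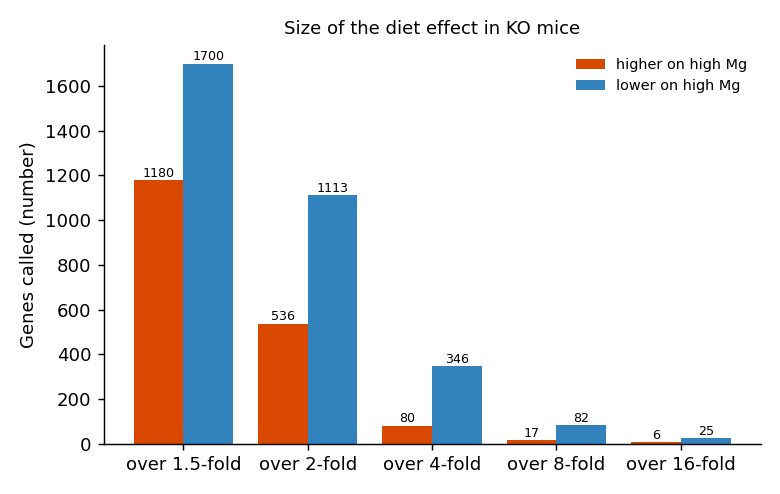
Number of genes called higher (orange) or lower (blue) on high magnesium in KO mice (vertical axis) whose fold change passed the size on the horizontal axis. At every size shown more genes fell than rose, from 1180 against 1700 past 1.5-fold to 6 against 25 past 16-fold.

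Genes that rose made up a larger part of the aortic RNA on high magnesium. On high magnesium, genes called higher took 15.9% to 19.4% of a library's counts, with a median of 18.5%, and on minimal magnesium 9.85% to 13.5%, with a median of 11.3%. Genes called lower took 6.35% to 12.1% on high magnesium (median 8.64%) and 17.2% to 22.3% on minimal magnesium (median 20.2%). Neither sum overlapped between the diets, which the choice of the genes by this same contrast favours. In WT mice the genes that rose in KO mice took 11.6% ± 1.27 (SD, n = 6) on minimal and 10.7% ± 0.793 on high magnesium, beside 11.4% ± 1.35 in KO mice on minimal magnesium. The genes that fell took 14.4% ± 2.80 and 16.5% ± 3.57 in WT mice, between the KO values of 8.91% ± 2.15 on high and 19.8% ± 2.08 on minimal magnesium. Leaving out mice 4 and 20 changed these means little, to 11.6% and 20.3% in KO mice on minimal magnesium. In WT mice the sum of genes that fell split by series without overlap, whichever the diet. It was 10.8% to 14.2% in mice 1 to 18 and 15.1% to 19.8% in mice 20 to 40. Most KO mice on high magnesium came from mice 1 to 18, and most on minimal magnesium from mice 20 to 40. Within KO mice 20 to 40 the sum was 10.4% and 12.1% on high and 17.5% to 22.3% on minimal magnesium. How much of the KO difference in this sum goes with series was not tested.

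Separation of the individual mice was rarer than a call. At 495 of the genes tested (2.96%) all 6 mice on high magnesium lay above all 6 on minimal magnesium, and at 892 (5.33%) all 6 lay below. Of these, 471 and 863 were called, against 24.9% of all genes tested, which their separation in the same contrast favours. With mouse 20 left out of the minimal magnesium group the counts were 595 above (3.55% of genes tested) and 1369 below (8.18%). Leaving out any mouse can only raise such counts, and no other mouse was left out for comparison. Near-complete loss or gain was rarer still: 6 genes averaged at least 1 CPM on minimal and below 0.1 CPM on high magnesium, and 1 gene showed the opposite. All 7 of these changes were called, but they were picked for a large difference between the same groups, so their calls add nothing to the choice.

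The level of a gene went with the direction of its call. Genes averaging below 1 CPM in KO mice were called higher in 3.92% and lower in 7.22% of cases, and those from 1 to 10 CPM in 7.68% and 13.8%. From 10 to 100 CPM both directions stood at about the same share, 13.8% higher and 13.6% lower. Above 100 CPM rises were more frequent, 18.3% against 13.9%. The sum of both directions is not compared between levels, since the power of the test grows with counts. With mice 4 and 20 left out, falls outnumbered rises from 10 to 100 CPM as well (14.9% lower, 12.3% higher), and rises still led above 100 CPM (18.7% against 14.0%).

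Genes with many annotated transcripts leaned towards rises, though not below 10 CPM. Genes with 7 or more transcripts were called higher in 16.0% and lower in 10.8% of 3664 cases, while single-transcript genes were called higher in 9.77% and lower in 11.9% of 5231 cases. Genes with 2 to 3 transcripts (10.5% higher, 14.8% lower) and with 4 to 6 (11.5% higher, 15.7% lower) leaned towards falls. Among genes of 10 to 100 CPM, those with 7 or more transcripts were called higher in 17.8% and lower in 9.99%, against 12.3% and 14.5% of single-transcript genes. Above 100 CPM the corresponding values were 20.9% and 9.22% against 16.1% and 15.6%. From 1 to 10 CPM the lean was the other way. There 5.16% of genes with 7 or more transcripts were higher and 15.5% lower, against 8.14% and 11.2% of single-transcript genes. Below 1 CPM 1.47% of 68 genes with 7 or more transcripts were higher and 13.2% lower. Genes with 7 or more transcripts at 10 to 100 CPM were higher in 14.8% and lower in 11.2% when mice 4 and 20 were left out. The longest transcript had a median of 2962 bases among genes that rose and 3098 bases among genes that fell, against 2919 bases among genes not called.

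**Figure D2:**
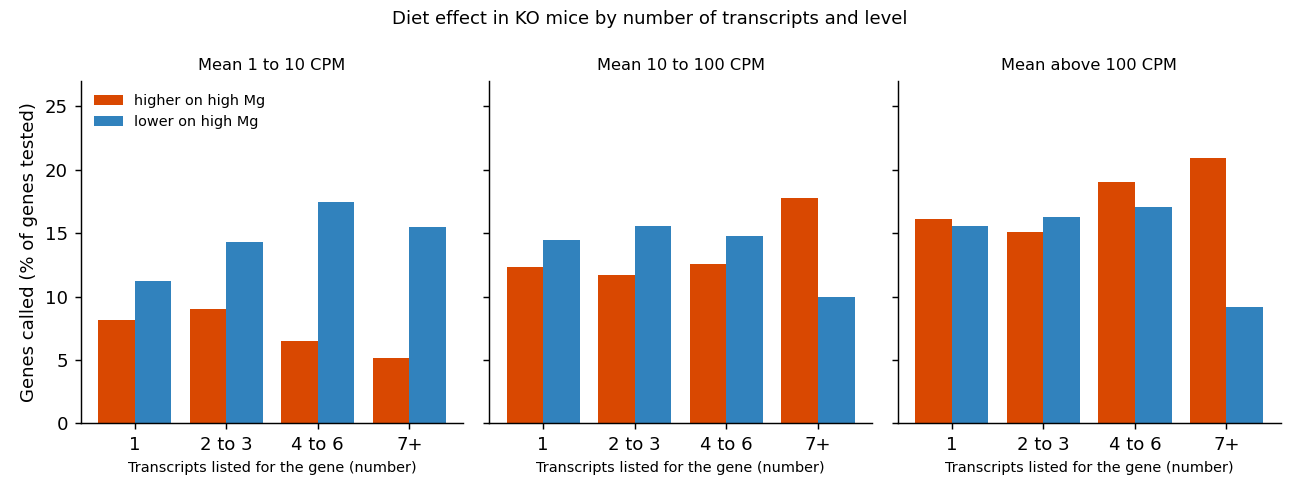
Percent of genes tested that were called higher (orange) or lower (blue) on high magnesium in KO mice (vertical axis), by the number of transcripts listed for the gene (horizontal axis), in 3 classes of mean level. In genes with 7 or more transcripts rises exceed falls at 10 to 100 CPM and above 100 CPM, and falls exceed rises at 1 to 10 CPM.

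Mice on the same diet differed in where they lay between the diet means. Each KO mouse was placed at the genes called when that mouse was left out of the fit, on the high or the minimal magnesium side of the midpoint between the diet means of the other mice. Mice 11, 12, 13 and 16 lay on the high magnesium side at 76.3%, 86.7%, 86.3% and 83.8% of genes. Mice 31 and 32, the pair on high magnesium from mice 20 to 40, lay there at 45.5% and 69.3%. On minimal magnesium, mice 35, 36, 37 and 40 lay on the high magnesium side at 14.4%, 2.71%, 6.22% and 18.4%, and mice 18 and 20 at 32.7% and 31.1%. The diets did not overlap, but mouse 31 was nearer to mouse 18 than to mouse 12. WT mice, placed at all 4174 genes, lay on the high magnesium side at 23.1% to 44.8% whichever diet they had received. Among WT mice on high magnesium the series did not overlap, with 41.4% and 41.8% in mice 1 to 18 and 24.1% to 29.6% in mice 20 to 40. On minimal magnesium they did, with 28.4% to 44.8% and 23.1% to 33.7%, the lowest of mice 1 to 18 being mouse 4. Placed without mice 4 and 20, KO mice on high magnesium stood at 45.6% to 86.5%, KO mice on minimal magnesium at 2.44% to 37.7% and WT mice at 33.1% to 50.7%, so that mouse 31 then lay inside the WT range.

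**Figure D3:**
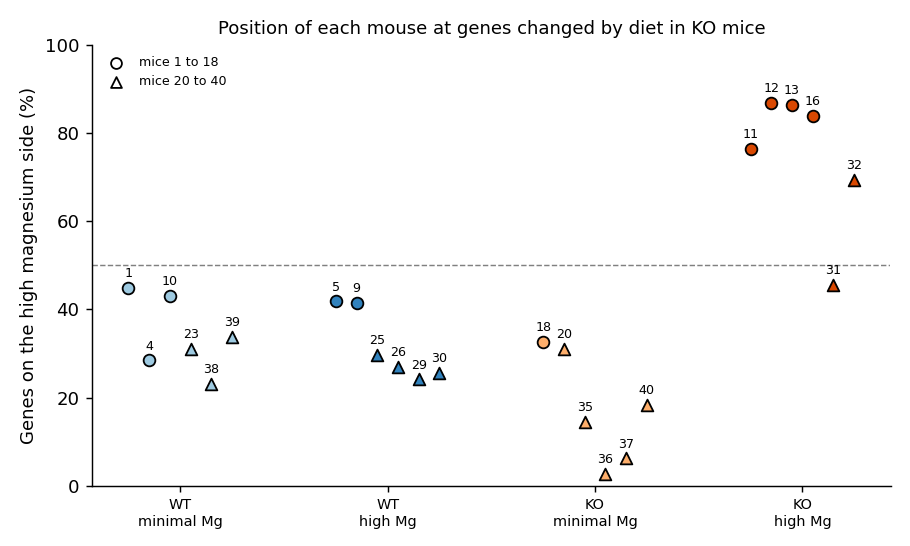
Percent of diet-responsive genes at which each mouse lay on the high magnesium side of the midpoint (vertical axis), by genotype and diet (horizontal axis), with circles for mice 1 to 18, triangles for mice 20 to 40 and mouse numbers above the points. KO mice on high magnesium run from 45.5% in mouse 31 to 86.7% in mouse 12, KO mice on minimal magnesium from 2.71% to 32.7%, and WT mice from 23.1% to 44.8%.

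A principal component analysis of the 12 KO libraries did not use the diet labels. Component 1 accounted for 40.0% of the variance and component 2 for 19.1%. Along component 1, mice 11, 12, 13 and 16 scored -102.6 to -49.2 and mouse 18 scored -1.8. Mice 31 and 32 scored 31.6 and 13.4, inside the range of -1.8 to 83.9 spanned by the minimal magnesium group. Component 1 thus overlapped between the diets and did not overlap between the series: mice 1 to 18 scored -102.6 to -1.8 and mice 20 to 40 scored 13.4 to 83.9. Mouse 20 had the highest score on the second component, 90.3, with the others between -51.1 and 41.5. The median SD of log2 CPM over genes was 0.40 on high and 0.30 on minimal magnesium (0.25 without mouse 20). Within a series it was 0.33 in the 4 mice on high magnesium from mice 1 to 18 and 0.30 in the 5 on minimal magnesium from mice 20 to 40. In WT mice the order was the other way, 0.31 on high and 0.42 on minimal magnesium. This WT minimal magnesium group includes mouse 4, and its spread was not computed without that mouse.

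The diet effect was also read within each series of mouse numbers. In mice 20 to 40, with 2 mice on high and 5 (mouse 20 among them) on minimal magnesium, 2135 of 18032 genes (11.8%) were called by edgeR. In mice 1 to 18, with 4 on high and only mouse 18 on minimal magnesium, 86 of 17655 (0.487%) were called, 5 higher and 81 lower, where the lone mouse was assumed to vary like the other groups. The series share no library, so each can be held against the other. Of 2084 genes called in mice 20 to 40 and tested in the model of all mice, 1776 (85.2%) had the same sign in mice 1 to 18. Among rises this held for 821 of 966 (85.0%, against 49.0% of all genes higher in mice 1 to 18) and among falls for 955 of 1118 (85.4%, against 51.0% of all genes lower). The median log2 difference in mice 1 to 18 was 0.31 at the rises and -0.58 at the falls, against -0.01 over all genes. Over all 16741 genes the diet differences of the series correlated at r = 0.407, a value across genes that do not count as replicates, and 63.9% had the same sign. All 86 genes called in mice 1 to 18 had the same sign in mice 20 to 40. When mouse 20 was left out of mice 20 to 40 (4 on minimal magnesium), 2854 genes were called, 1463 higher and 1391 lower, 84.7% of those tested in the model of all mice had the same sign in mice 1 to 18, and r was 0.453. With mouse 4 left out of mice 1 to 18, 346 genes were called there, and 328 of the 345 tested in the model of all mice had the same sign in mice 20 to 40 without mouse 20. With a term for the series in the model of all mice, 3251 genes were called, 2855 of them among the 4174.

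The named genes came from called genes that averaged at least 10 CPM in KO mice and did not overlap there between the diets. Among those genes they had the largest changes in each direction. That choice favours their KO changes, and also the genotype differences that contain these changes. A gene listed as MGP_C57BL6NJ_G0032329 was the first of 2 named rises. It has 3 transcripts of up to 1916 bases. Its level on high magnesium was 720 CPM in mouse 11, 128 in mouse 12, 213 in mouse 13, 361 in mouse 16, 52.8 in mouse 31 and 86.3 in mouse 32. On minimal magnesium it was 15.5 CPM in mouse 18, 0.915 in mouse 20, 9.64 in mouse 35, 2.72 in mouse 36, 13.9 in mouse 37 and 3.85 in mouse 40. Every mouse on high magnesium lay above every mouse on minimal magnesium, as the choice required, and mice 31 and 32 were the lowest of their group. The means were 260 ± 251 and 7.75 ± 6.14 CPM (SD, n = 6), a 33.6-fold difference (21.7-fold without mouse 11, whose group then averaged 168 CPM), with an estimated log2 change of 5.08 ± 0.74 (standard error, edgeR adjusted p = 6.17e-05). It was 4.45 without mouse 11. Without mice 4 and 20 it was 4.83 (edgeR adjusted p = 3.15e-05), and within mice 20 to 40 alone 3.48 (edgeR adjusted p = 0.0115). WT mice had little of this RNA, 1.89 ± 2.14 CPM on minimal and 0.753 ± 0.479 on high magnesium, with mouse 4 the highest at 6.13. Their log2 fold change was -1.31 (edgeR adjusted p = 0.713), and the diet effect differed between genotypes by 6.39 ± 1.08 (SE, edgeR adjusted p = 0.000772). Shares of this gene's TPM (a length-adjusted level) differed over the pooled KO mice. The transcript of 1822 bases held 62.0% on minimal and 40.4% on high magnesium, and that of 1916 bases 26.1% and 47.5%. The share of the former ranged from 10.3% to 62.2% between mice on high and from 0% to 76.7% on minimal magnesium.

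The second named rise, MGP_C57BL6NJ_G0029312, was smaller and more even. It has 4 transcripts of 406 to 986 bases, whose shares hardly moved over the pooled mice. The most abundant transcript of MGP_C57BL6NJ_G0029312 held 54.2% of the gene's TPM on minimal and 54.4% on high magnesium. The gene's level on high magnesium was 26.7 CPM in mouse 11, 35.9 in mouse 12, 33.5 in mouse 13, 31.7 in mouse 16, 12.7 in mouse 31 and 25.5 in mouse 32. On minimal magnesium it was 5.38 CPM in mouse 18, 0.572 in mouse 20, 2.46 in mouse 35, 2.45 in mouse 36, 4.58 in mouse 37 and 6.12 in mouse 40. The groups did not overlap, as the choice required, and mouse 31 was again the lowest on high magnesium. The means of 27.7 ± 8.32 and 3.60 ± 2.11 CPM differed 7.69-fold, with an estimated log2 change of 2.94 ± 0.51 (standard error, edgeR adjusted p = 0.000313). The estimate was 2.70 without mice 4 and 20 and 2.55 within mice 20 to 40 (edgeR adjusted p = 5.16e-05 and 0.029). In WT mice the level was 1.40 ± 1.24 CPM on minimal and 0.314 ± 0.160 on high magnesium, a log2 fold change of -2.06 that was not called (edgeR adjusted p = 0.311). The difference between genotypes was 5.00 ± 0.77 (SE, edgeR adjusted p = 0.000372).

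Among falls, MGP_C57BL6NJ_G0016976, with transcripts of 358 and 4453 bases, was nearly lost on high magnesium. Its level there was 1.63 CPM in mouse 11, 1.89 in mouse 12, 0.649 in mouse 13, 1.01 in mouse 16, 4.17 in mouse 31 and 2.56 in mouse 32. On minimal magnesium it was 28.6 CPM in mouse 18, 8.46 in mouse 20, 77.5 in mouse 35, 135 in mouse 36, 68.2 in mouse 37 and 43.7 in mouse 40. No value overlapped, as the choice required. Mice 31 and 32 were the highest of the high magnesium group, and mouse 20 was the lowest of the other. The means were 1.98 ± 1.26 and 60.3 ± 44.6 CPM, a level 30.4-fold lower on high magnesium, with an estimated log2 change of -4.88 ± 0.69 (standard error, edgeR adjusted p = 4.13e-05). It was -5.14 without mice 4 and 20 and -4.30 within mice 20 to 40 (edgeR adjusted p = 6.35e-07 and 0.0132). WT mice held 13.1 ± 14.5 CPM on minimal and 12.7 ± 5.36 on high magnesium, so the KO values lay on either side of the WT levels. The WT log2 fold change was -0.04 (edgeR adjusted p = 0.99) with all mice and 0.81 (edgeR adjusted p = 0.814) without mice 4 and 20, mouse 4 holding 41.9 CPM. The genotype difference in diet effect was -4.85 ± 0.87 (SE, edgeR adjusted p = 0.00137) and -5.95 without those mice.

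The single-transcript gene MGP_C57BL6NJ_G0014233, of 399 bases, was listed at 0 in 5 of the 6 mice on high magnesium and at 0.539 CPM (8 counts) in mouse 32. On minimal magnesium it stood at 26.4 CPM in mouse 18, 3.89 in mouse 20, 50.6 in mouse 35, 39.3 in mouse 36, 49.5 in mouse 37 and 46.3 in mouse 40, 3394 counts in all. The fitted log2 change of -8.34 ± 1.65 (standard error, edgeR adjusted p = 0.00103) depends on the prior count and is no bound. Without mouse 32 the estimate was -11.99. Its call was not kept within mice 20 to 40 alone (-7.21, edgeR adjusted p = 0.084; without mouse 20 0.0593), and was kept without mice 4 and 20 (-8.59, edgeR adjusted p = 0.000786). WT mice were mixed, with 0 in mouse 1 on minimal magnesium and in mice 5, 25 and 29 on high magnesium, and up to 34.6 and 28.4 CPM in the others of each diet. Values at 0 and far above 0 thus occurred within the same WT group. Whether a near copy shares reads with this gene was not tested, and its counts are uncertain. Among mice 1 to 18 alone none of the 4 named genes was called, with edgeR adjusted p from 0.0655 to 0.358 and 1 mouse on minimal magnesium. With mouse 4 left out there, MGP_C57BL6NJ_G0029312 (edgeR adjusted p = 0.012) and MGP_C57BL6NJ_G0016976 (edgeR adjusted p = 0.00812) were called and the other two were not.

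**Figure D4:**
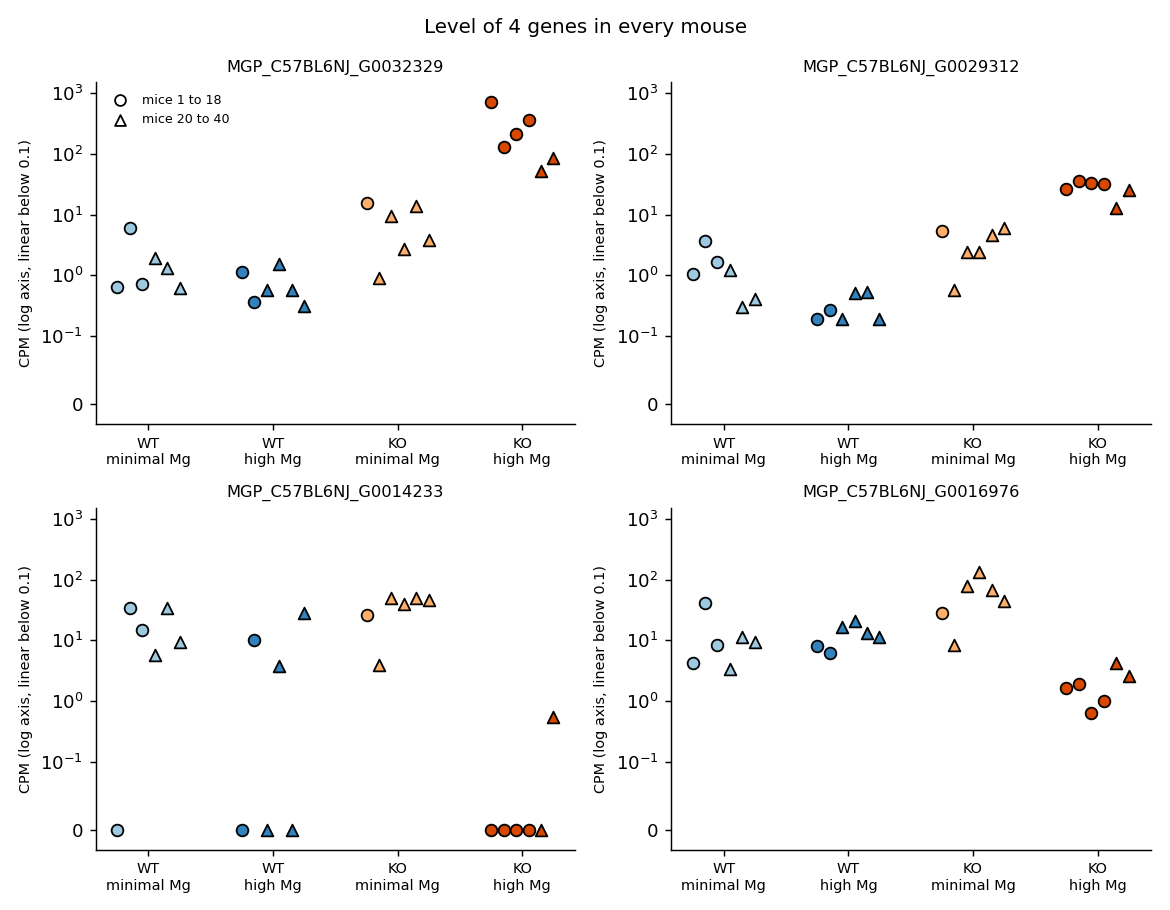
Level in CPM (vertical axis, logarithmic above 0.1 and linear below) of 4 genes in each of the 24 mice, by genotype and diet (horizontal axis), with circles for mice 1 to 18 and triangles for mice 20 to 40. In KO mice the diets do not overlap for any of the 4 genes, which was a condition of their choice. G0014233 is at 0 in 5 of 6 KO mice on high magnesium and in 4 WT mice.

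The response to diet differed between the genotypes at many genes. A test of the difference of the diet effects called 1830 of 16741 genes (10.9%) by edgeR, 785 with a more positive and 1045 with a more negative effect in KO mice. Leaving out mice 4 and 20, it called 1863, with 578 more positive and 1285 more negative, so the balance of directions moved while the number hardly did. Without mice 31 and 32 it turned, with 1960 more positive and 1560 more negative of 3520. All KO mice on high magnesium were then from mice 1 to 18. At the genes that rose in KO mice, the median log2 fold change of WT mice was -0.06, and 37.0% of them were higher on high magnesium in WT mice against 43.4% of all genes. At the genes that fell in KO mice the WT median was 0.01, with 50.9% higher. Without mice 4 and 20 these shares were 40.4% and 55.9%, against 47.8% of all genes. Over all genes the diet effects of the genotypes, which share no library, correlated at r = 0.293, again across genes rather than replicates, and at 0.25 without mice 4 and 20. The series were spread differently in WT mice, with 3 mice on minimal and 2 on high magnesium from mice 1 to 18.

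Changes in the share of a gene's transcripts were few in this test. Of 32313 transcripts in 9385 genes, 30 (0.0928%) in 26 genes had a changed share at a limma adjusted p below 0.05, 17 higher and 13 lower on high magnesium, while 3331 passed an unadjusted p of 0.05. On simulated shares the test recovered 49 of 100 changes of 2 in log2 ratio and 87 of 100 changes of 4. A share without a call may therefore have changed. The called shares moved by 5.44 to 77.7 percentage points. Of the 26 genes, 16 were also called at the level of the whole gene and 10 were not, against 2576 of 9369 (27.5%) of the genes whose shares were tested. Without mice 4 and 20, 39 transcripts were called and 22 of them were among the 30. The list rested on the method: edgeR's diffSpliceDGE on estimated counts called 122 transcripts, of which 3 were among the 30. It also rested on single mice: 3 transcripts were called without mouse 35 or without mouse 37, 4 without mouse 36, 6 without mouse 12 and 19 without mouse 13.

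The named rise in share was in a transcript of a very long gene whose own level was not called. MGP_C57BL6NJ_T0044346, of 15639 bases, is the longest of 3 transcripts of gene MGP_C57BL6NJ_G0023105, the others being 15432 and 14846 bases long. Its share of the gene's TPM on high magnesium was 42.3% in mouse 11, 47.9% in mouse 12, 54.3% in mouse 13, 47.1% in mouse 16, 30.5% in mouse 31 and 56.0% in mouse 32. On minimal magnesium it was 18.6% in mouse 18, 14.7% in mouse 20, 14.5% in mouse 35, 18.3% in mouse 36, 21.3% in mouse 37 and 20.4% in mouse 40. The diets did not overlap, and here mouse 32 was the highest rather than among the lowest. Mean shares were 46.3% ± 9.26 and 18.0% ± 2.85 (SD, n = 6), and the log2 ratio of the transcript to the others differed by 1.95 ± 0.29 (SE, limma adjusted p = 0.00815). Over the pooled mice the transcript of 15432 bases went from 64.0% on minimal to 48.2% on high magnesium and that of 14846 bases from 18.5% to 7.23%. The whole gene stood at 22.3 ± 9.86 TPM on minimal and 13.1 ± 4.36 TPM on high magnesium, an estimated log2 change of -0.55 ± 0.27 (standard error, edgeR adjusted p = 0.132). WT shares were 14.6% ± 4.42 on minimal and 17.4% ± 4.97 on high magnesium, near the KO level on minimal magnesium. The log2 ratio was 1.88 without mice 4 and 20 (limma adjusted p = 0.0177), and the call was not kept within mice 20 to 40 alone (1.77, limma adjusted p = 0.101) or by diffSpliceDGE (adjusted p = 0.856).

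The named fall in share rested on few reads. MGP_C57BL6NJ_T0049285, of 436 bases, is 1 of 38 transcripts of gene MGP_C57BL6NJ_G0024525, and had at most 38.5 estimated counts in any library. It was listed at 0 in 5 of the 6 mice on high magnesium and at 6.58% of the gene in mouse 32. On minimal magnesium its share was 3.35% in mouse 18, 35.4% in mouse 20, 19.0% in mouse 35, 30.8% in mouse 36, 20.6% in mouse 37 and 18.9% in mouse 40, so mouse 18 lay below mouse 32 and the diets overlapped. The log2 ratio was -4.76 ± 0.90 (SE, limma adjusted p = 0.0365), and -4.50 without mice 4 and 20, where the call was not kept (limma adjusted p = 0.0731). The whole gene differed by an estimated log2 change of -0.10 ± 0.18 (standard error, edgeR adjusted p = 0.709).

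**Figure D5:**
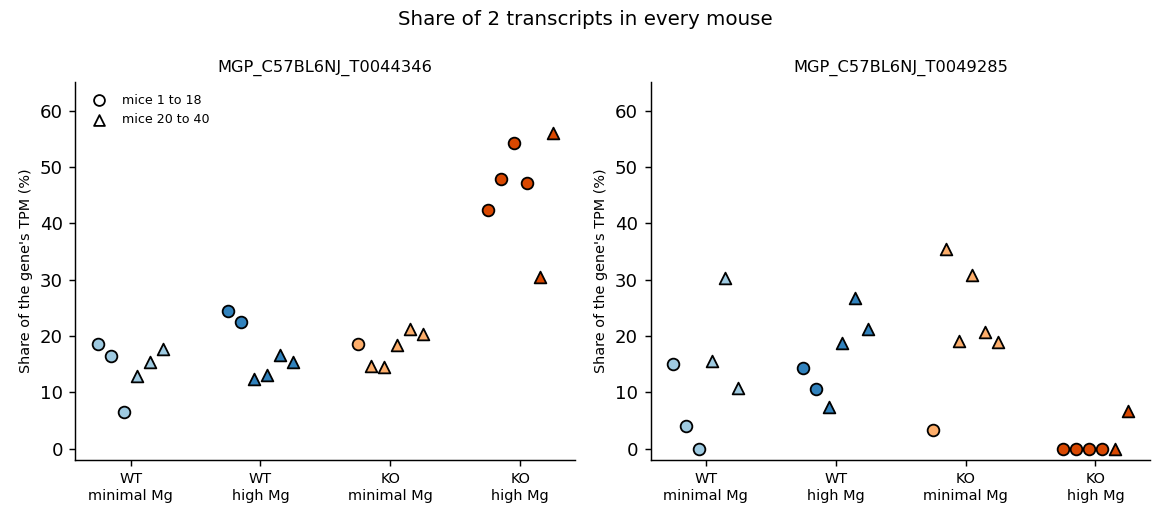
Share of the gene's TPM held by 2 transcripts (vertical axis, percent) in each mouse, by genotype and diet (horizontal axis), with circles for mice 1 to 18 and triangles for mice 20 to 40. T0044346 holds 30.5% to 56.0% in KO mice on high magnesium and 14.5% to 21.3% in KO mice on minimal magnesium, while T0049285 is at 0 in 5 of 6 KO mice on high magnesium.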

How the data were processed

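RNA of 24 thoracic aortas was isolated with TRIzol, with no DNase used, and a company made the libraries, per the labels' protocols. Per the submitters' processing notes, the tools were FastQC and Salmon and the build mm10, and versions are not given in the sources used here. The deposited tables list 102919 transcripts of 41012 genes, and per the file headers each has an estimated count, a TPM, and its full and effective length. Effective length is the other measure given, and it was the same in all 24 tables.

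Estimated counts were summed by gene and rounded, which changed totals by at most 0.0017%. In edgeR 4.0.16 (R 4.3.3, limma 3.58.1), filterByExpr left 16741 genes. These were scaled by TMM and fitted by the robust quasi-likelihood model with 4 group means, and p-values were adjusted by Benjamini-Hochberg with calls below 0.05. Standard errors of log2 fold changes were taken as the change over the root of the quasi-likelihood F. CPM use the TMM-scaled totals. For transcript shares, limma was fitted to log2 of the transcript's TPM over that of the gene's other transcripts, each plus a pseudocount of 0.1 TPM, for genes averaging at least 1 TPM and transcripts with a mean share of 5% to 95%.

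The comparison and lists were chosen with earlier results of these data known. Since 0 identifiers matched a symbol, the named genes are the 2 in each direction with the largest log2 fold change among called genes that averaged at least 10 CPM in KO mice and did not overlap between diets. The named transcripts, 1 in each direction, have the smallest adjusted p among those whose share moved by at least 10 percentage points in a gene not called as a whole. Replicates are separate mice. The scripts were tested on simulated data. Alternatives were RLE scaling, DESeq2 1.42.0, limma-voom, other filters and pseudocounts, diffSpliceDGE, a series term, each series alone, fewer libraries and leaving out each mouse. Thinning to the lowest total was chosen after seeing the data, as were each series without mouse 4 or 20, the placement of mice on the KO or WT side and the group values without mice 4 and 20.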

Additional observations from a re-analysis of the deposited data

Results flagged for a closer look

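In groups of 6 mice, 6 of 36 sets of values checked held a mouse that stood far from the others by Dixon's rule. The rule flags about 1 of 20 sets by chance only when sets are independent and normally distributed. These sets share mice and some are mostly at 0, so their number is not compared with chance. Among WT mice on minimal magnesium, mouse 4 stood above the others for MGP_C57BL6NJ_G0032329 (6.13 CPM, next 1.90) and for MGP_C57BL6NJ_G0016976 (41.9 CPM, next 11.2). Mouse 4 is also the WT mouse that lay on the KO side at most of the genes that set the genotypes apart. Among WT mice on high magnesium, mouse 30 stood above the others for MGP_C57BL6NJ_G0014233 (28.4 CPM, next 10.3). In KO mice on high magnesium, mouse 32 was the only one with a count for the same gene (0.539 CPM) and the only one with a share above 0 for MGP_C57BL6NJ_T0049285 (6.58%). Genes called higher took 15.9% of the counts of mouse 31, the lowest value on high magnesium, with mouse 32 next at 18.1%.

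The diet effect differed between KO and WT mice, by edgeR's test of the difference itself, for all 4 named genes. These genes were chosen for a large KO effect, which is part of this difference, so the choice favours these calls. The log2 difference of the effects, KO minus WT, was 6.39 for MGP_C57BL6NJ_G0032329 and 5.00 for MGP_C57BL6NJ_G0029312. It was -7.13 for MGP_C57BL6NJ_G0014233 and -4.85 for MGP_C57BL6NJ_G0016976. Without mice 4 and 20 these were 5.31, 4.14, -7.74 and -5.95, and each kept its call, with edgeR adjusted p from 1.27e-05 to 0.0166.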

How the results depend on the processing

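None of the 4 named genes and 2 named transcripts changed the direction of its KO diet effect under the alternatives run. The 4 genes were chosen because their KO values did not overlap between the diets, so leaving out mice could hardly turn their direction. The same held for MGP_C57BL6NJ_T0044346, whose KO shares did not overlap. The balance of calls did turn in some alternatives. The count of 4174 genes called for diet in KO mice stayed within 1.5 times of itself under other scaling, tools, filters and the series term (3251 to 5529), while it was 2135 in mice 20 to 40 alone, 86 in mice 1 to 18 alone (346 without mouse 4), and 3000 to 5087 when each mouse was left out. Without a filter on low counts 1177 of 3298 calls (35.7%) were higher, against 47.0% with it, and without mice 31 and 32 2899 of 5618 (51.6%). Libraries thinned to the lowest total gave 4051 calls, 3850 of them shared. The 1830 genes with a diet effect differing between genotypes became 4252 with limma-voom (2129 positive, 2123 negative), 1164 without a filter (304 positive, 860 negative), 1057 with the series term (364 and 693), 397 in mice 20 to 40 alone (109 and 288; 898 without mouse 20, 231 and 667) and 3520 without mice 31 and 32 (1960 and 1560). Leaving out each mouse gave 1209 (without mouse 36) to 2789 (without mouse 31). The cause was not tested. The 30 transcripts with a changed share became 130 with a pseudocount of 0.5 TPM, 19 on an arcsine scale, 68 with genes from 0.1 TPM, 122 by diffSpliceDGE, 15 with only the KO mice, 75 in mice 20 to 40 alone (20 higher, 55 lower, against 17 and 13) and 51 without mice 31 and 32, and 3 to 43 when each mouse was left out. The fall in share of MGP_C57BL6NJ_T0049285 lost its call in 16 of 22 alternatives and the rise of MGP_C57BL6NJ_T0044346 in 2 of 22. No paired analysis was possible because the labels give mouse numbers and no number shared between the groups.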
